A study of Homo sapiens with 6 samples.

Results

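Human 5S rRNA genes lie in a tandem cluster on chromosome 1, and copies of the gene are scattered over the rest of the genome. The dispersed copies described here are the 58 windows of a count table of 53603 windows that carry the 5S rRNA class label and lie outside the tandem cluster. The other 17 windows of the class form that cluster, on chromosome 1 from 228610137 to 228646308 (GRCh38). Members were taken by label and position alone, with no use of their counts. Each window is 400 bp long and starts 150 bp upstream of a start site. Where a 5S rRNA copy is annotated, the window covers the whole copy and the DNA on both sides. The libraries are small RNA of HEK293T, an immortalised line derived from human embryonic kidney, 48 h after transfection. One arm received 150 nM of a control siRNA. The other received 150 nM of an siRNA against La, the protein encoded by SSB. Each arm has 3 biological replicates, per the series' design text. All 6 libraries were treated with a phosphatase and then with a polynucleotide kinase, so RNA with several kinds of 5′ and 3′ ends could enter them. The parent line was used in both arms, with no transgene named in the labels. The windows count small RNA at start sites and not mRNA, so markers of the cell line could not be checked.

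5S rRNA is a short RNA of the large ribosomal subunit and is made by RNA polymerase III. Its gene carries its own promoter inside the transcribed part, in 3 elements named box A, the intermediate element and box C, which the factor TFIIIA binds. Transcripts of RNA polymerase III end in a run of U, and La binds that end soon after synthesis and protects it. Scattered copies of the gene are mostly classed as pseudogenes. Many lack the end of the gene or carry base changes.

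GENCODE release 29 (GRCh38) has a 5S gene or pseudogene with a sequence in 48 of the 58 windows, of 526 such genes in all. Of these 48, 44 are typed as rRNA pseudogenes and 4 as rRNA. The other 10 windows hold no such gene and have no sequence here. Each copy was aligned to the tandem gene RNA5S1, which is 119 bases long. Its box A covers bases 50 to 64, its intermediate element bases 67 to 72 and its box C bases 80 to 97, counted from 1 at the 5′ end.

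The longest exact matches to RNA5S1 were found in 4 copies. RNA5SP389 lies on the plus strand of chromosome 14 from 106636672 to 106636786, with no host gene in GENCODE, while RefSeq places it in the immunoglobulin heavy chain locus IGH. RNA5SP145 lies in an intron of MED12L, on the plus strand of chromosome 3 from 151188099 to 151188223. RNA5SP149 lies outside any other gene, on the minus strand of chromosome 3 from 180161886 to 180161977. RNA5SP429 lies in an intron of CDH1, the gene of E-cadherin, on the plus strand of chromosome 16 from 68742480 to 68742588.

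RNA5SP389 equalled RNA5S1 over bases 1 to 90 and then left it inside box C. RNA5SP145 did so over bases 1 to 86, and RNA5SP149 over bases 1 to 83, with the change T84A next to it. RNA5SP429 began at base 4 and matched through base 79. All 4 hold box A and the intermediate element letter for letter, and none holds a whole box C.

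Another 5 copies keep shorter or broken matches and span lower counts. RNA5SP199 lies on the plus strand of chromosome 5 from 155845437 to 155845528 and RNA5SP242 on the plus strand of chromosome 7 from 128697439 to 128697556. RNA5SP50 lies on the minus strand of chromosome 1 from 73749517 to 73749623. GENCODE gives none of these 3 a host gene, but RefSeq places RNA5SP199 in SGCD and RNA5SP242 in GARIN1A. RNA5SP335 lies in an intron of NAV2, on the minus strand of chromosome 11 from 19401872 to 19401981. RNA5SP323 lies in an intron of CEP55, on the minus strand of chromosome 10 from 93510548 to 93510680.

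RNA5SP199 differed from RNA5S1 at only C30T and G71C over its aligned stretch, so its longest exact run was bases 31 to 70. RNA5SP335 differed at G8A, C24T and G47A before an exact run from base 48 to base 90. RNA5SP323 kept bases 1 to 29 exactly and then carried 9 substitutions, of which C30T is the first.

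Dispersed copies tended to leave the 5S rRNA sequence at the same place. The alignment ended between bases 88 and 92 of RNA5S1, inside box C, in 26 of the 48 copies. It ran past base 110 in 17, and ended elsewhere in 5. In 23 copies it started at base 1. Identity over the aligned stretch ran from 75.9% to 100%, with a median of 86.6%. No dispersed copy held box C letter for letter (searched on the copy's own strand), against 4.18% of the 526 GENCODE 5S genes. Box A was exact in 13 of 48 (27.1%, against 13.7% of the 526) and the intermediate element in 35 (72.9%, against 55.7%). The 526 include the tandem genes, and the 16 identical tandem copies are most of the 22 genes with an exact box C. An exact run of at least 40 bases was found in 9 of 48, or 18.8%, against 5.70% of the 509 genes named RNA5SP. How the submitters chose which copies to give a window is not given in the sources used here. A match of letters describes the sequence and does not show a working promoter.

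**Figure D1:**
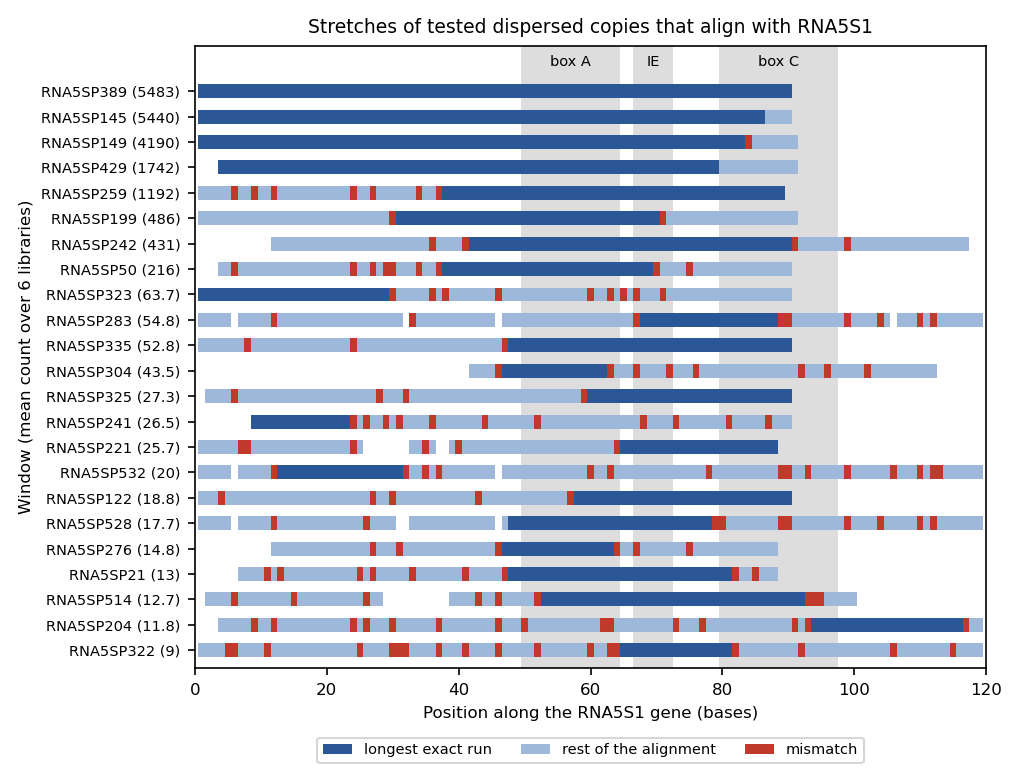
Stretches of the tested dispersed copies with a sequence that align with RNA5S1, by base position on the x axis, one row per window with its mean count over 6 libraries in parentheses. Dark bars are the longest exact run, light bars the rest of the alignment, red marks mismatches, and grey bands the promoter elements; most rows end near base 90, and long dark bars lie at the top, where counts are highest.

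The members are spread over 17 chromosomes, with 9 on chromosome 6 and 7 on chromosome 1 as the most on any. By the GENCODE annotation, 33 of the 58 members lie in an intron of a host gene, 23 have no host gene and 2 overlap an exon. For the 10 windows without a GENCODE 5S gene, the whole window was used in place of the copy. RefSeq places another gene over 5 of those 23. The 2 that overlap an exon are RNA5SP21 in MIGA1 and window 5S_rRNA_51856 in AC007179.2, a gene with no common name. No member window overlapped a window of another class or another member. Host transcripts and antisense RNA in a window cannot be separated from the copy, because the use of strand in counting is not given in the sources used here.

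A small number of copies took most of the reads. Of the 58 windows, 10 had no read in any library, which allows up to 3 counts, or from 0.731 to 0.978 CPM (counts scaled to the size of the library), in each library. The other 48 had at least 1 read, and 34 were read in all 6 libraries. Only 12 had a mean of at least 200 counts and 8 a mean of at least 1000. The top 3 windows, RNA5SP389, RNA5SP145 and RNA5SP149, held from 45.4% to 73.5% of the dispersed counts of a library. The top 8 held from 89.6% to 94.6%, and the top 12 from 97.6% to 98.5%. All windows are 400 bp long, so their counts can be compared without a length correction.

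Values below follow the order of replicates 1 to 3 in each arm. RNA5SP389 had 10837, 4801 and 4194 counts in the controls and 3390, 3716 and 5961 in the knockdowns. RNA5SP145 had 10849, 4705 and 3980 counts in the controls and 3409, 3769 and 5928 in the knockdowns. RNA5SP149 had 8100, 3701 and 3018 counts in the controls and 2681, 3168 and 4472 in the knockdowns. In all 3 windows control replicate 1 stood above the other libraries, La knockdown replicate 3 was second, and the arms overlapped.

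RNA5SP429 had 2049, 1497 and 1702 counts in the controls and 1480, 2327 and 1395 in the knockdowns. Window 5S_rRNA_51856, on chromosome 2 from 59322030 to 59322429, had 1935, 1534 and 1617 in the controls and 1479, 2370 and 1339 in the knockdowns. Window 5S_rRNA_52262, on chromosome 8, had 2047, 1515 and 1565 in the controls and 1529, 2344 and 1497 in the knockdowns. These 3 windows shared one profile, with La knockdown replicate 2 the highest library and overlapping arms.

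Window 5S_rRNA_53170, in an intron of RAI14 on chromosome 5 from 34802129 to 34802528, had 1336, 1228 and 1363 counts in the controls and 1126, 1761 and 1173 in the knockdowns. RNA5SP259, in an intron of the Wnt receptor gene FZD3 on chromosome 8, had 1183, 1086 and 1199 in the controls and 1078, 1579 and 1026 in the knockdowns. Both were again highest in La knockdown replicate 2. RNA5SP199 had 668, 505 and 425 counts in the controls and 352, 444 and 525 in the knockdowns. RNA5SP242 was the evenest of the 12 best-read windows, with 432, 442 and 450 counts in the controls and 413, 445 and 404 in the knockdowns. Window 5S_rRNA_51585, in an intron of the nuclear pore gene TPR on chromosome 1 from 186372478 to 186372877, had 255, 238 and 274 in the controls and 273, 799 and 176 in the knockdowns. Its count in La knockdown replicate 2 was far above the other 5 libraries. RNA5SP50 had 202, 210 and 217 counts in the controls and 203, 260 and 207 in the knockdowns.

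**Figure D2:**
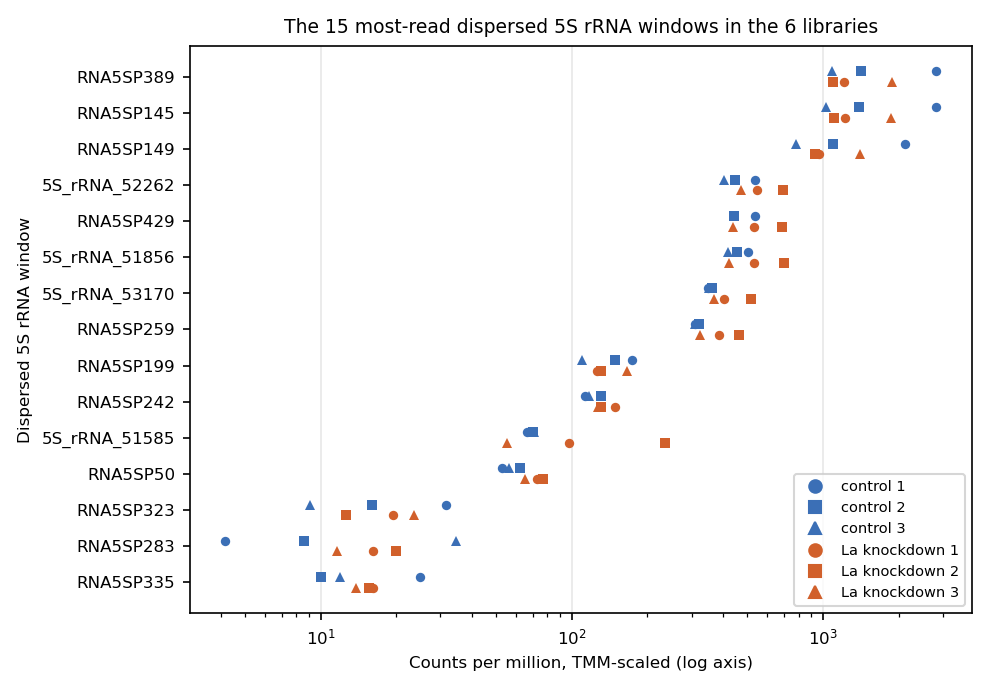
CPM per library, on a log axis, of the 15 dispersed windows with the most counts, with the controls and the La knockdowns in different colours and each point 1 library. RNA5SP389, RNA5SP145 and RNA5SP149 are highest in control replicate 1, the 5 next in count are highest in La knockdown replicate 2, and in most windows the arms overlap.

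Among the 48 copies with a sequence, counts tended to be higher with a longer exact match to RNA5S1. Windows 5S_rRNA_52262, 5S_rRNA_51856, 5S_rRNA_53170 and 5S_rRNA_51585 have no sequence here and are left out. Their mean counts were 1749.5, 1712, 1331 and 336. The 4 copies that share an exact run of 76 bases or more had mean counts from 1742 to 5483, with a median of 4815. The 5 copies that share 40 to 75 bases had a median of 431 and ranged from 12.7 to 1192. Those with 30 to 39 bases, 5 in number, had a median of 18.8. For the 17 copies with 20 to 29 bases the median was 1.33, with 3 at 0 in all libraries, and for the 17 with 10 to 19 bases it was 0.167, with 6 at 0. Across the 48 copies Spearman's rho was 0.68 between the run and the mean count and 0.63 between identity and the mean count. These points share the same libraries and overlap in sequence, so the values are a description. RNA5SP183 shows that identity is a different measure, with 91.3% identity but a longest run of 25 bases and a mean of 2.83 counts. RNA5SP514 shared 40 bases and had a mean of only 12.7 counts.

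Box A and the intermediate element can lie inside the longest exact run, so they are not separate from it. They did not always go with the run. RNA5SP283 and RNA5SP530 hold an exact box A although their longest run covers bases 68 to 88. RNA5SP514 shares bases 53 to 92 and has no exact box A. The 13 copies with an exact box A had a median of 431 counts and ranged from 1.33 to 5483. The 35 copies with a sequence but no exact box A had a median of 1.17 and reached at most 63.7, in RNA5SP323. Whether reads of the tandem genes were placed at copies that share their sequence was not tested, and reads with several positions were handled in a way not given in the sources used here. Reads that fit several copies make the value of any single copy uncertain.

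**Figure D3:**
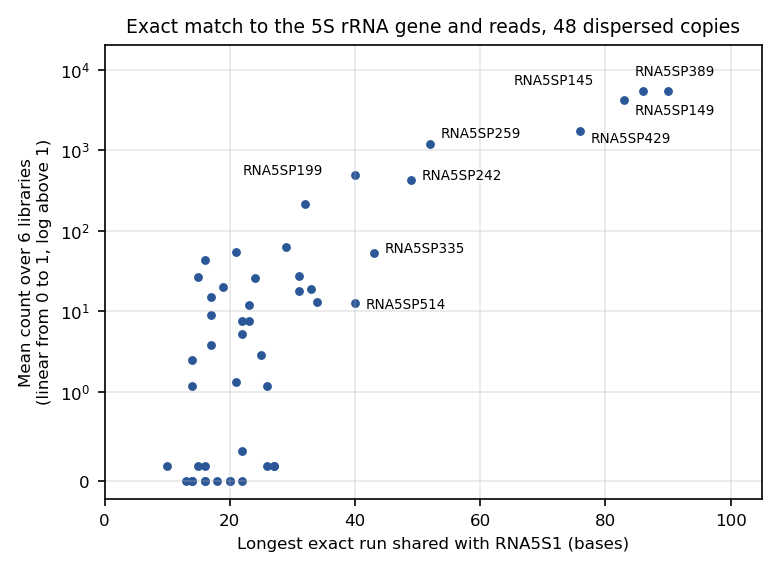
Mean count over 6 libraries (y axis, linear from 0 to 1 and log above) against the longest exact run shared with RNA5S1 in bases (x axis), one point for each of the 48 copies with a sequence. The copies with 76 bases or more lie at 1742 counts or above, and those with under 30 bases lie at or below 63.7.

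Several windows had almost the same count in the same library. The counts of RNA5SP389 and RNA5SP145, which share bases 1 to 86, differed by 0.111% to 5.38% within a library. RNA5SP429 and windows 5S_rRNA_51856 and 5S_rRNA_52262 differed by 1.85% to 11.8% between the highest and the lowest, and window 5S_rRNA_53170 and RNA5SP259 by 4.45% to 14.3%. The same measure was 2.07% to 2.79% over the 16 tandem copies that are identical in sequence. RNA5S9, the tandem copy with 1 change, T84C, had a count lower than RNA5S1 by 2.91 to 3.54 times in every library. RNA5SP149, with T84A at the same base, had fewer counts than RNA5SP389 and RNA5SP145 in all 6 libraries. The pairs and trios were picked out after their counts were seen.

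The dispersed copies that keep the exact start of the gene, from base 1, had their highest CPM in the same library. There are 6 members that match RNA5S1 exactly from base 1 for 23 bases or more, namely RNA5SP389 (90 bases), RNA5SP145 (86), RNA5SP149 (83), RNA5SP199 (29), RNA5SP323 (29) and RNA5SP205 (23). All 6 were highest in control replicate 1, where their CPM was 1.33 to 2.51 times the median of the other 5 libraries. RNA5SP323 had 121, 54 and 35 counts in the controls and 54, 43 and 75 in the knockdowns. RNA5SP205, which was too low to test, had 17, 5 and 3 in the controls and 8, 6 and 7 in the knockdowns. The 18 other tested copies with a sequence match for 0 to 7 bases from base 1. Of them 3 were highest in control replicate 1, and the ratio had a median of 0.836 and ran from 0.148 to 3.42. The 3 were RNA5SP335, RNA5SP304 and RNA5SP276. RNA5SP429 is counted among the 18 because it begins at base 4, though it matches bases 4 to 79 exactly. It was highest in La knockdown replicate 2, and its control replicate 1 was 1.21 times the median of the others. Of the 15 copies with such short matches that were read but not tested, 6 were highest in that library, at means of at most 5.17 counts. The 17 tandem copies, which match from base 1 for 83 bases or more, did not share the pattern: all were highest in La knockdown replicate 1, and control replicate 1 was 1.04 to 1.07 times the median of the others. This pattern was noticed after the values were seen and has no test.

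**Figure D4:**
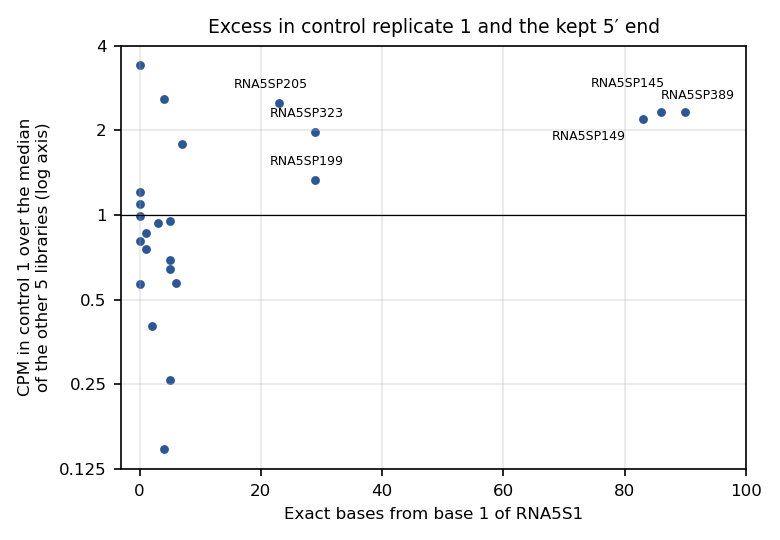
CPM in control replicate 1 over the median of the other 5 libraries (y axis, log) against the number of bases that match RNA5S1 exactly from base 1 (x axis), one point per copy. The 6 copies with 23 bases or more lie between 1.33 and 2.51, and the 18 others spread on both sides of 1.

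The siRNA target was examined first among the series-wide checks. SSB has 2 windows side by side on chromosome 2. The one from 169798729 to 169799128 had 4, 3 and 3 counts in the controls and 1, 0 and 0 in the knockdowns (exact permutation test, two-sided p = 0.1, the smallest that 3 against 3 allows). The other, from 169799129 to 169799528, had 0, 0 and 1 in the controls and 0, 2 and 0 in the knockdowns, and was not tested. Both count small RNA at the SSB promoter and do not measure SSB mRNA or La protein. Library totals ran from 3066299 to 4105806 counts, 31773 windows had no read, and replicates of an arm correlated with r from 0.971 to 0.991 across windows. Control replicate 1 had the highest total. In bulk libraries, fewer cells with an RNA and less of it per cell cannot be told apart.

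As a group, the dispersed copies took a small and unequal share of each library. They held 0.986%, 0.671% and 0.588% of all counts in the controls and 0.582%, 0.689% and 0.778% in the knockdowns. The means were 0.748% ± 0.210 and 0.683% ± 0.0982 (SD, n = 3 each), and the arms overlapped. The knockdown mean was lower by 0.0654 percentage points. Without control replicate 1 it was higher, by 0.0537 percentage points, so the sign rests on that library. The tandem windows held 15.4%, 16.002% and 13.5% in the controls and 19.2%, 14.98% and 17.5% in the knockdowns. For every 1000 tandem counts there were 64.2, 41.9 and 43.5 dispersed counts in the controls and 30.3, 46.0 and 44.5 in the knockdowns. The means were 49.9 ± 12.4 and 40.2 ± 8.65 (SD, n = 3 each), again with overlapping arms. Without control replicate 1 the difference went from -9.65 to -2.48 dispersed counts per 1000 tandem counts.

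No dispersed copy passed the test for a change after La knockdown. Of the 58 windows, 29 passed the filter on low counts, with means of 9 counts or more, and the highest mean left out was 7.67. With edgeR's quasi-likelihood test and Benjamini-Hochberg adjustment over all windows tested, 0 of 29 were lower and 0 higher at an adjusted p under 0.05. The background over all windows tested was 4.79% lower and 0.658% higher, or 5.45% in either direction. At an unadjusted p under 0.05, 0 members were lower and 2 higher, against 14.2% and 9.68% of all windows tested. DESeq2 called 0 members in either direction. Under upper quartile scaling 2 members were called higher, and that scaling moved the median of all tested windows from -0.05 to 0.26 on the log2 scale.

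The fitted changes of the members leaned to one side of 0. Of the 29 tested members 20 had a positive log2 fold change (La knockdown minus control) and 9 a negative one, with a median of 0.26 and a range from -0.92 to 1.59. Over all 1064 tested windows 498 values were positive and 566 negative, with a median of -0.05. The 17 tandem windows had a median of 0.28, with all values between 0.27 and 0.29 and no call. With no filter on low counts the median of the 48 read members was -0.06, so its sign depended on the filter. That fit gave a median of 0.02 for the tandem windows. In the authors' deposited table the tandem windows ran from 0.013 to 0.035. Among the 29 tested members, CPM ranges of the arms did not overlap in 6, all higher after La knockdown, and 0 were lower. Over all tested windows these shares were 14.1% higher and 17.9% lower. The 6 were window 5S_rRNA_53170, RNA5SP259, RNA5SP50, RNA5SP325, RNA5SP528 and RNA5SP322. In some the gap was narrow. The highest control and lowest knockdown CPM were 7.83 and 7.88 in RNA5SP325, and 321 and 323 in RNA5SP259. They were 363 and 370 in window 5S_rRNA_53170, and 1.81 and 3.54 in RNA5SP322.

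RNA5SP322 and RNA5SP528 had the highest fitted changes and the lowest p-values of the members, at low counts, and both are copies that align over the whole gene. RNA5SP322 lies in an intron of the glutamate receptor gene GRID1, on the plus strand of chromosome 10 from 86052448 to 86052566. RNA5SP528 lies on the minus strand of chromosome 20 from 30816156 to 30816274, outside any other gene. Their sequences are printed 5′ to 3′ because they show scattered changes along the whole gene, with the longest exact run shared with RNA5S1 in capitals (bases 65 to 81 in RNA5SP322 and 48 to 78 in RNA5SP528).
RNA5SP322: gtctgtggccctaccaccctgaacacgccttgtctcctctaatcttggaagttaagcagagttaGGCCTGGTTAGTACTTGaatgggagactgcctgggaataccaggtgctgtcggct
RNA5SP528: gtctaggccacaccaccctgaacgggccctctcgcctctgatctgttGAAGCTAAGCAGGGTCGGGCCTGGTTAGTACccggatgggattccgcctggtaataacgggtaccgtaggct

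RNA5SP322 had 2, 6 and 7 counts in the controls and 11, 12 and 16 in the knockdowns. Every knockdown library was above every control library, with 1.37 ± 0.735 against 4.17 ± 0.778 CPM (SD, n = 3 each). Its log2 fold change was 1.59 (SE 0.49, edgeR adjusted p = 0.0959), which missed the threshold. It passed under 2 of its 12 alternatives, upper quartile scaling (edgeR adjusted p = 0.0495) and the replicate block. Over the 12 the adjusted p ran from 0.0243 to 0.581. RNA5SP528 had 15, 14 and 9 counts in the controls and 24, 26 and 18 in the knockdowns, with 3.46 ± 0.985 against 7.31 ± 1.5 CPM (SD, n = 3 each). Its log2 fold change was 1.07 (SE 0.37, edgeR adjusted p = 0.129), and its adjusted p ran from 0.0495 to 0.581 over 12 alternatives.

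RNA5SP528 shares changes with other copies. RNA5SP283, in an intron of LINC01410 on chromosome 9, and RNA5SP532, on chromosome 20, carry T12C, G89T, A90T, G99T, G110A and T112C with it. RNA5SP530 on chromosome 9 carries T12C, G89T, A90T and G99T. Apart from these 4, no dispersed copy shared more than 1 substitution with RNA5SP528. RNA5SP283 had 16, 29 and 134 counts in the controls and 45, 68 and 37 in the knockdowns, so control replicate 3 was far above the other controls. Its log2 fold change was 0.01 (SE 0.63, edgeR adjusted p = 0.992). RNA5SP532 had a mean of 20 counts and RNA5SP530 of 1.33. These copies were compared after their values were seen.

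At the other end, RNA5SP304 had the lowest fitted change. It lies in an intron of ARMC3 on the plus strand of chromosome 10 from 22997255 to 22997358, and aligns with RNA5S1 from base 42. It had 95, 49 and 37 counts in the controls and 26, 19 and 35 in the knockdowns, and after scaling the arms overlapped. The means were 16.3 ± 7.76 and 8.65 ± 2.78 CPM (SD, n = 3 each), and the fitted log2 fold change was -0.92 (SE 0.42, edgeR adjusted p = 0.212). In the authors' deposited table its log2 fold change was -1.15 with an adjusted p of 1. Its unadjusted p there, 0.00337, was the lowest of the dispersed windows.

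RNA5SP276, in an intron of LINC00536 on chromosome 8, had 34, 10 and 10 counts in the controls and 6, 6 and 23 in the knockdowns. Its log2 fold change was -0.37 (SE 0.63), and without control replicate 1 it was 0.42. The 3 best-read windows also owed the sign of their fitted change to that library. For RNA5SP389 the log2 fold change was -0.35 (SE 0.36, edgeR adjusted p = 0.518) and 0.15 without control replicate 1. For RNA5SP145 it was -0.32 (SE 0.37, edgeR adjusted p = 0.561) and 0.21 without that library. For RNA5SP149 the values were -0.27 (SE 0.35, edgeR adjusted p = 0.611) and 0.23.

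Most of the other well-read windows had fitted values above 0. The log2 fold change was 0.22 for RNA5SP429 (SE 0.25), 0.26 for window 5S_rRNA_51856 (SE 0.25) and 0.30 for window 5S_rRNA_52262 (SE 0.24). Window 5S_rRNA_53170 had 0.28 (SE 0.23), RNA5SP259 0.32 (SE 0.23) and RNA5SP50 0.33 (SE 0.23), the last with an edgeR adjusted p of 0.364. Although their raw counts overlapped between arms, the CPM of these last 3 did not. RNA5SP242 had 0.17 (SE 0.22) and RNA5SP199 -0.04 (SE 0.26). Window 5S_rRNA_51585 had 0.90 (SE 0.44, edgeR adjusted p = 0.230), and 0.13 without La knockdown replicate 2.

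Among windows of lower counts, RNA5SP335 had 95, 34 and 46 counts in the controls and 45, 53 and 44 in the knockdowns, with a log2 fold change of -0.04 (SE 0.38). RNA5SP323 had -0.03 (SE 0.45). RNA5SP241, in an intron of CPED1 on chromosome 7, had 30, 22 and 12 counts in the controls and 20, 36 and 39 in the knockdowns. Its log2 fold change was 0.79 (SE 0.40, edgeR adjusted p = 0.241). Window 5S_rRNA_51284, on chromosome 6 from 43752677 to 43753076, had 9, 13 and 20 counts in the controls and 25, 21 and 13 in the knockdowns, with 0.74 (SE 0.43, edgeR adjusted p = 0.279). In all 4 windows the arms overlapped. RNA5SP325, in an intron of SORCS1, had 30, 19 and 20 counts in the controls and 30, 40 and 25 in the knockdowns, with 0.70 (SE 0.34, edgeR adjusted p = 0.225).

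The other 7 tested members had mean counts from 11.8 to 25.7 and log2 fold changes from -0.06 in RNA5SP204 to 0.60 in RNA5SP514. The 19 members that were read but not tested had means from 0.167 to 7.67 counts. One of them, RNA5SP399 in an intron of MYO9A, had 4, 2 and 1 counts in the controls and 0 in each knockdown. With no filter on low counts, edgeR called none (0) of the 48 read members, and an unadjusted p under 0.05 was reached by 4 lower members and 2 higher ones. In the authors' deposited table RNA5SP399 had an unadjusted p of 0.0129, and every dispersed window had an adjusted p of 1, and over the 29 tested members the median log2 fold change was -0.03 with a range from -1.15 to 1.33.

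**Figure D5:**
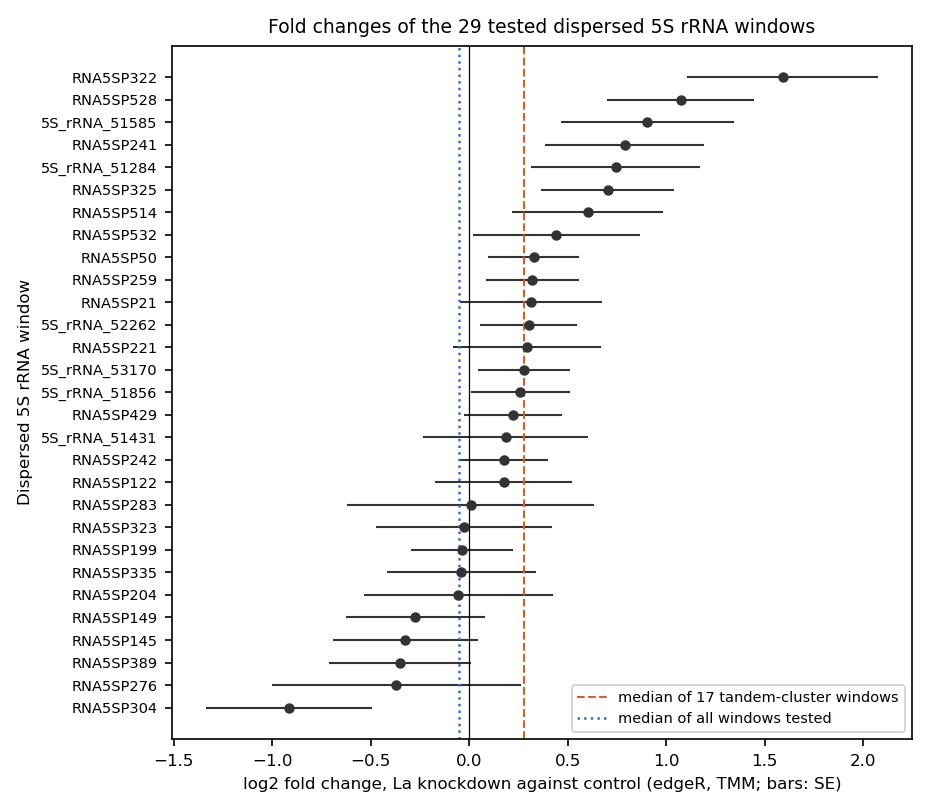
Log2 fold change (La knockdown minus control, x axis) with its standard error as a bar for each of the 29 tested dispersed windows, ordered by value. The dotted line is the median of all tested windows and the dashed line that of the 17 tandem windows. Values run from -0.92 in RNA5SP304 to 1.59 in RNA5SP322, with 20 above 0, and none passed an adjusted p of 0.05.

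Genes whose products make, bind or trim 5S rRNA were followed in a list of 37. It holds the 5S particle proteins RPL5 and RPL11, promoter factors such as TFIIIA (GTF3A), subunits of RNA polymerase III, and exonucleases. A window was found for 35 of the 37 and there were 65 windows in all, 12 with no read. Only 1, that of RPL5, a ribosomal protein that binds 5S rRNA directly, passed the filter on low counts. It had 7, 10 and 15 counts in the controls and 10, 9 and 9 in the knockdowns. The arms overlapped, and the fitted log2 fold change was 0.06 (SE 0.42, edgeR adjusted p = 0.929). None of the list's windows was lower or higher by the test, and small RNA at a promoter does not measure the gene's mRNA.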

How the data were processed

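Small RNA of 6 HEK293T libraries, 3 per arm, was analysed from the tables the authors deposited. The first holds raw read counts per 400 bp window, deposited without normalization. The second holds the authors' comparison, with log2 fold changes and average log2 CPM, an F statistic treated as a score, p-values and adjusted p-values, per the file headers. Trim Galore, Bowtie2, bedtools, edgeR and the builds GRCh38 and hg38 are named in the submitters' processing notes, without versions. Strand use and the placing of reads with several positions are not given in the sources used here. No count column belonged to another study (0 such columns).

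Low windows were removed by filterByExpr with default settings, which kept 1064, and TMM factors set the scale. The arms were compared in edgeR 4.0.16 (R 4.3.3) by its quasi-likelihood test over the 6 libraries, without covariates. Benjamini-Hochberg adjustment ran over every window tested, and 0.05 was the threshold. CPM use TMM-scaled library sizes, and the standard errors come from the fold change and the F statistic. Totals of 3066299 to 4105806 counts limit the precision, and a count of 0 allows up to 3 counts. Reads carry no molecular identifiers, so such limits cover counting error only. The pipeline was tested on simulated counts with known changes.

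GENCODE release 29 transcripts on GRCh38 gave names, positions and sequences. Each copy was aligned locally to RNA5S1 with Biopython 1.88 on its own strand. The promoter elements, which do not overlap, were taken as the letters of RNA5S1 at those positions. They were searched on the copy's own strand at any position, so a short element can be found away from its own place. The sequences of RNA5S1 and of the copies nearest to it are not reported here. Called windows, the 15 with the most counts and the 5 lowest and 5 highest fold changes were named (21 windows). RNA5SP325, RNA5SP399, RNA5SP204, RNA5SP205, RNA5SP514, RNA5SP183, RNA5SP530, RNA5SP532 and RNA5SP21 were named after their values were seen. The members and lists were chosen with earlier results of these data known. Alternatives were other scalings (upper quartile, RLE, or the library size by itself), DESeq2 1.42.0, a block for the replicate number, other filters (none, or a mean of at least 20 counts), each library left out, and changes of the member list. Figures were drawn with matplotlib 3.10.9.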

Additional observations from a re-analysis of the deposited data

How the results depend on the processing

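No dispersed window was called lower under any alternative tried. None was called higher except under upper quartile scaling (2, RNA5SP322 and RNA5SP528) and with a replicate block (1, RNA5SP322, edgeR adjusted p = 0.0243). Deviations of same-numbered libraries correlated by 0.14, 0.23 and -0.46. Libraries of different numbers were not compared in this way, so whether replicate numbers pair the libraries is not settled. The block called 88 windows lower and 20 higher over all windows. The 51 lower and 7 higher windows of the whole table became 104 and 4 with no filter, and 58 higher under upper quartile scaling, 23 with DESeq2 and 4 with a mean of at least 20 counts. Lower calls were 87.9% of all calls, 38.3% under upper quartile scaling and 76.8% with DESeq2. Leaving out 1 library gave 0 to 98 lower and 0 to 21 higher. Both were 0 without La knockdown replicate 1, where an unadjusted p under 0.05 in edgeR was reached by 103 lower windows and 72 higher ones. The highest values came without La knockdown replicate 3.

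The median log2 fold change of the members was 0.58 under upper quartile scaling and -0.065 with no filter, and 0.12 to 0.31 over the libraries left out. The difference in share between the arms was 0.0276 percentage points without the members that share at least 40 bases with RNA5S1, an alternative chosen after seeing the data, and -0.146 to 0.0537 over the libraries left out. The ratio to tandem counts stayed below 0, from -13.6 to -2.48. Members whose arms did not overlap went from 6 to 13 higher under upper quartile scaling (33.3% of all windows). Over the libraries left out they were 5 to 10 higher and 0 to 2 lower, also chosen after seeing the data. Without La knockdown replicate 3 these were 10 and 2, against 22.1% and 31.6% of all windows.

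Of 269 refitted values of the 21 named windows, 234 kept direction and call, 3 became calls and 32 changed sign. Over the libraries left out, the log2 fold change of RNA5SP389 ran from -0.70 to 0.15, of RNA5SP145 from -0.66 to 0.21, of RNA5SP149 from -0.57 to 0.23, of RNA5SP199 from -0.24 to 0.12, of RNA5SP276 from -1.37 to 0.42 and of RNA5SP335 from -0.29 to 0.47. Each of these 6 was highest without control replicate 1. RNA5SP323 ran from -0.36 to 0.56 and was also highest there, and RNA5SP283, which ran from -0.44 to 1.34, was lowest when control replicate 1 was omitted and highest when control replicate 3 was. Upper quartile factors gave 0.013 for RNA5SP145, 0.062 for RNA5SP149, 0.28 for RNA5SP199, 0.31 for RNA5SP323 and 0.30 for RNA5SP335. RLE factors gave 0.036 for RNA5SP199, 0.061 for RNA5SP323 and 0.053 for RNA5SP335, and DESeq2 gave 0.037, 0.062 and 0.053. With no filter RNA5SP429 had -0.048, 5S_rRNA_51856 -0.012, RNA5SP242 -0.082 and RNA5SP283 -0.22. The replicate block gave 0.086 for RNA5SP323 and 0.065 for RNA5SP335. RNA5SP283 had -0.14 with library size alone and -0.012 with a mean of at least 20 counts. The cause was not tested.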
